A study of Mus musculus with 8 samples.

Results

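The subject is how CD8+ dendritic cells held in interferon gamma (IFN-γ) change between 4 and 16 hours of culture. Its members are 4 of the 8 arrays of the series, the 2 labelled IFN-γ at 4 hours and the 2 labelled IFN-γ at 16 hours, chosen by their titles and described across 8251 genes. The cells were CD8+ dendritic cells purified from the spleen of female DBA/2J mice aged 60 days. All mice, those behind the medium groups included, had received 10 µg of Flt3-L (Flt3 ligand, which expands dendritic cells) for 9 days, so that every group comes from animals with an enlarged dendritic cell compartment. Treated cells were cultured with 200 U/ml of mouse IFN-γ, and control cells in medium alone, for 4 or 16 hours, with 2 arrays in each of the 4 groups. Whether the arrays numbered 1 and 2 stand for separate mice, pools or culture wells is not said in the labels, and a p-value here reflects array-to-array spread that may be technical in part or whole. RNA was made into biotinylated target and hybridised to the Affymetrix MG-U74Av2 array, on which a gene is read by 1 or more probe sets.

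IFN-γ binds a receptor that activates the kinases Jak1 and Jak2, and the signal switches on interferon regulatory factors, large and small GTPases that attack intracellular microbes, the chemokines Cxcl9 and Cxcl10, and the machinery of antigen presentation. Feedback inhibitors such as Socs1 later damp the signal. CD8+ dendritic cells are the spleen's main cross-presenting cells, and they mature once taken from the tissue, with a rise of costimulatory molecules and of the migration receptor Ccr7. A comparison of 2 time points under IFN-γ therefore holds both the later course of the interferon response and the effect of culture itself, and the medium groups are the only measure of the second.

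Values are log2 of the deposited intensity, so that a difference of 1 is 2-fold. A change is 16 minus 4 hours, given with its standard error (SE), and a gene was called when limma's p, adjusted by the Benjamini-Hochberg method over 12422 probe sets, was under 0.05. Since 2 arrays were available per group, precision rests on a spread estimated over all 4 groups. A second fit added the replicate number as a block, because arrays of the same number deviated together. Unless the block is named, a call is that of the fit without it, which leaves this pairing out. The result with the block is given for each list whose count under IFN-γ it moved by over 1.5 times, and for some single genes. Median intensity was alike, between 51.3 and 53.7 on the 8 arrays. The ratio of the 3' to the 5' control probe set of Actb, which rises as RNA degrades, was 1.47 and 1.65 in treated cells at 4 hours and 1.68 and 1.66 at 16 hours, while in medium it was 2.04 and 2.20 at 4 hours and 1.63 and 1.57 at 16 hours. The part of this ratio in the medium changes, and in their difference from those under IFN-γ, was not tested. The replicate arrays at 16 hours with IFN-γ lay further apart than those of any other group: the SD over probe sets of their difference was 0.311, against 0.176 at 4 hours with IFN-γ. Background is the median of 15 antisense control probe sets on the same arrays. It is a high line: between 46.3% and 53.8% of the probe sets tested read below it on an array. Of the called genes, 9 were below it in both treated groups. The identity markers Cd8a (the CD8 alpha chain) and Itgax (CD11c) were measured above background in both treated groups, and they differed between the times by -0.09 ± 0.13 and 0.05 ± 0.12 (limma adjusted p 0.779 and 0.865). They do not stand for all 12 CD8+ dendritic cell markers measured, whose changes ran from -1.03 to 0.40 with a median of -0.17. Of the 12, 7 had a negative change and 5 a positive one. The fit without the block called 1 lower, and the block called 5 lower and 1 higher.

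Between 4 and 16 hours under IFN-γ, 83 genes rose and 133 fell, or 1.01% and 1.61% of the 8251 genes. The rises were led by genes of phagocytes: the 3 chains of complement C1q, lysozyme (Lyz2), the high-affinity Fc receptor Fcgr1 and the lipase Pla2g7. The falls were led by the interleukin-1 antagonist Il1rn, granzyme B (Gzmb), the chemokines Cxcl10, Ccl22 and Cxcl9, and the costimulatory receptor Cd40. Of these changes, 18 rises and 35 falls reached 2-fold, and the median change over all genes was 0.04. With the replicate block, 279 genes rose and 666 fell (3.38% and 8.07%), among them all 216 called without it. Without either treated 4-hour array, 31 and 27 probe sets were called in place of 263, against 117 without either medium 4-hour array, 176 without array 1 and 708 without array 2 of the treated 16-hour group. Whichever of the 8 arrays was left out, 20 genes were called: C1qa, C1qb, C1qc, Fcgr1, Lyz2, Lst1, Pld4 and Slc11a1 as higher, and Ccl22, Cd40, Cxcl10, Fdps, Fscn1, Gzmb, Hspa1a, Hspa1b, Idi1, Il1rn, Laptm4b and Pvr as lower.

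**Figure D1:**
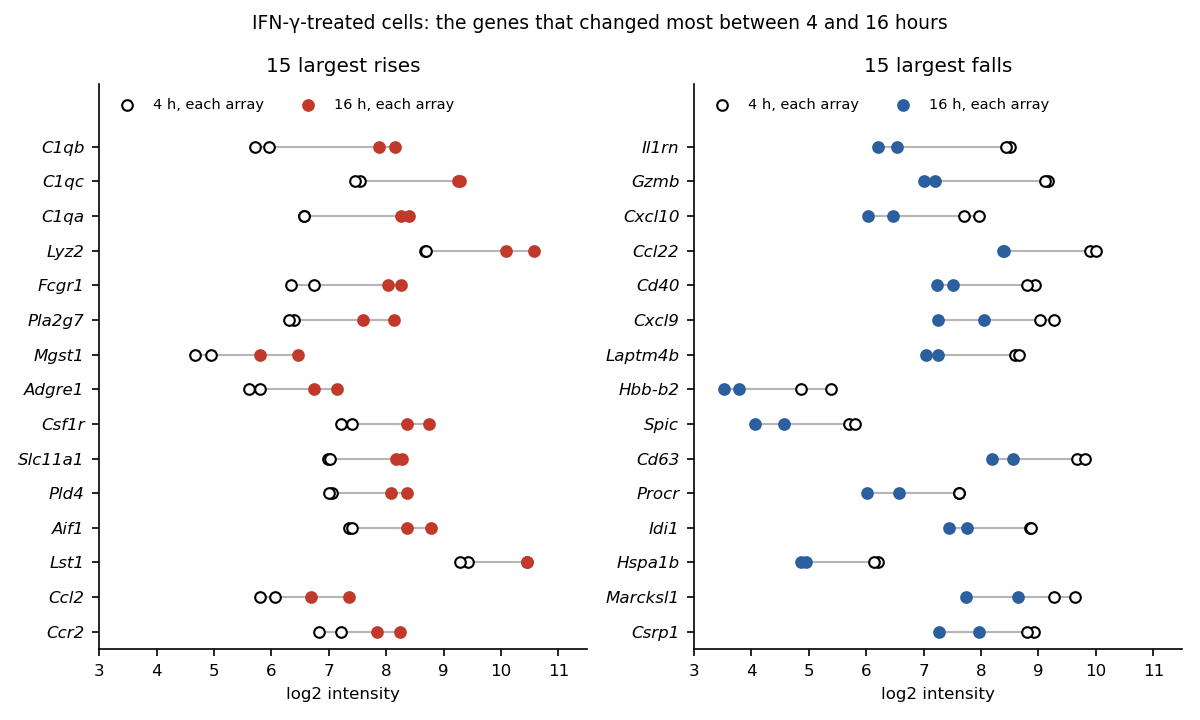
Log2 intensity (horizontal axis) of the 15 genes with the largest called rise and the 15 with the largest called fall, on each of the 2 arrays at 4 hours (open) and the 2 at 16 hours (filled) under IFN-γ. In every row the 16-hour arrays lie beyond both 4-hour arrays, which the choice of these genes required. The changes run from C1qb, with 2.18, to Il1rn, with -2.10.

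Each numbered pair of arrays gives its own estimate of the change, and the pairs differed in size among the genes called. All 216 called genes moved the same way in both pairs. The calls used these same arrays, and no called gene had arrays that overlapped between the times. A shared sign therefore had to follow and is no separate support. The median rise was 0.71 between the arrays numbered 1 and 0.89 between those numbered 2, and the median fall was -0.89 and -0.68. Pair 2 gave the larger rise for 73 of the 83 genes and pair 1 the larger fall for 103 of the 133. Over all 8251 genes, the changes of the pairs had a Pearson correlation of 0.58, given as a description across genes, which are not replicates. Array 1 at 16 hours read below array 2 for 102 of the 133 genes that fell and for 65 of the 83 that rose. Such counts were not made over all genes. Over all probe sets the median change was 0.109 with array 1 alone at 16 hours and -0.015 with array 2 alone. Whether the sample behind one of these arrays had changed further than the other was not tested.

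**Figure D2:**
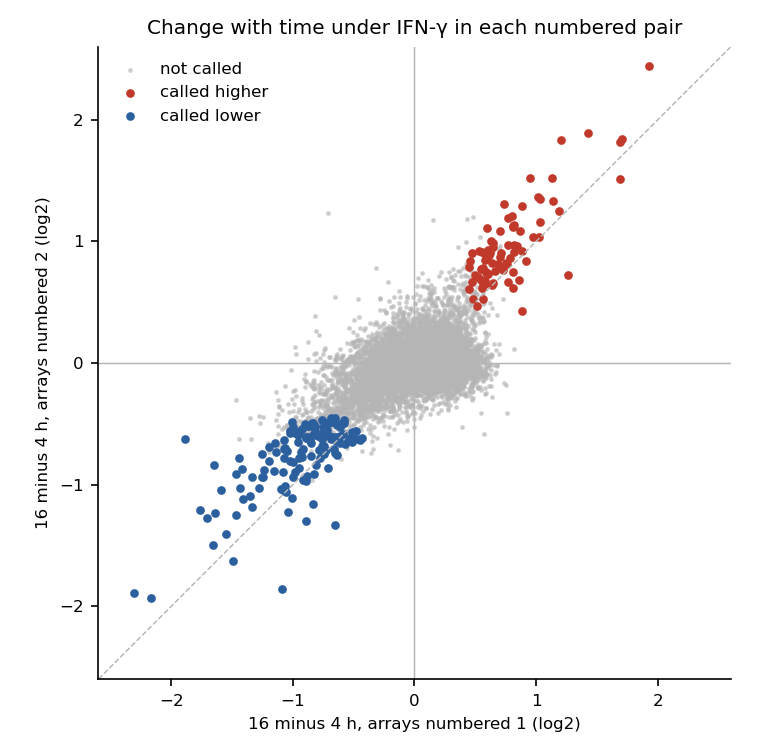
Change from 4 to 16 hours under IFN-γ between the arrays numbered 1 (horizontal) and those numbered 2 (vertical), both in log2 units, for 8251 genes, with called genes in red and blue and a dashed line of equal change. Called genes lie to the lower left and upper right of the origin, the blue ones mostly above the line (103 of 133) and the red ones mostly above it (73 of 83).

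Among the genes of the interferon response, the chemokines were called lower at 16 hours, while no GTPase and no interferon regulatory factor was called without the block. With the block, 2 GTPases and 1 interferon regulatory factor were called lower. Cxcl9 and Cxcl10, ligands that draw activated T cells and natural killer cells through the receptor Cxcr3, were both measured and both fell. The 250 bases before the transcription start of each, from the RefSeq promoter table (GRCm38.p6, 5′ to 3′ on the gene's strand), are shown because these genes had the largest falls among the interferon-induced genes listed. Capitals mark matches, on either strand, to an interferon-stimulated response element core (GAAANNGAAA) or an NF-κB motif (GGGNNNNNCC).
Cxcl9, chr5:92328080-92328329, minus strand: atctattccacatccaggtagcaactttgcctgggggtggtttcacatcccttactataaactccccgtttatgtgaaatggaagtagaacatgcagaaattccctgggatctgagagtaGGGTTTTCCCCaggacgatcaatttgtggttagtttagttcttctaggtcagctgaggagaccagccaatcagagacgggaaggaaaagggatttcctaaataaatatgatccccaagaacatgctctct
Cxcl10, chr5:92348890-92349139, minus strand: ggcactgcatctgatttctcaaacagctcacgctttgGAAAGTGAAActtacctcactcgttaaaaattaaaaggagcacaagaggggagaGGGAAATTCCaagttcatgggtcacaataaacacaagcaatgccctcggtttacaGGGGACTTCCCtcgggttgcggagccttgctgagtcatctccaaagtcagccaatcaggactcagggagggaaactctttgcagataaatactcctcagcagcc
The interferon element core was found in Cxcl10, 204 to 213 bases before the start, and not in the Cxcl9 window. It occurs in 2.98% of the 32851 promoters of that table in windows of this length. NF-κB matches were found in both, overlapping each other in part, and 45.8% of promoters hold one. The interferon gamma-activated site TTCNNNGAA, held by 7.02% of promoters, was in neither. These are matches of letters and show no binding.

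Cxcl10 had log2 intensities of 7.70 and 7.97 on the 4-hour arrays and 6.04 and 6.47 on the 16-hour arrays. The groups did not overlap, as in every called gene, and the change was -1.58 ± 0.16, a 2.98-fold fall (limma adjusted p 0.00162). For Cxcl9 the values were 9.02 and 9.27 at 4 hours against 7.26 and 8.06 at 16 hours, a fall with a change of -1.48 ± 0.22 (limma adjusted p 0.0132). Its 16-hour arrays differed from each other by more than its 4-hour arrays did, but both were below them. Without either treated 4-hour array, Cxcl10 was called and Cxcl9 was not. Despite the fall, treated cells at 16 hours still read above medium, a gap that was not tested. On the 16-hour medium arrays Cxcl9 was at 4.20 and 4.31 and Cxcl10 at 5.38 and 5.37, both below background there.

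None of the 9 measured interferon-inducible GTPases passed the test, in a list whose median change was -0.32. With the replicate block, 2 of them, Gbp2 and Gbp7, which coat pathogen vacuoles, were called lower. Gbp2 read 11.41 and 11.53 at 4 hours against 10.98 and 11.22 at 16 hours, with a change of -0.37 ± 0.14 (limma adjusted p 0.25, and 0.0324 with the block). The immunity-related GTPase Iigp1, which acts against intracellular parasites, read 9.24 and 9.43 at 4 hours against 9.29 and 9.69 at 16 hours, a change of 0.16 ± 0.18 (limma adjusted p 0.732), and its arrays overlapped. For Igtp and Irgm1, of the same family, the changes were -0.29 ± 0.14 and -0.35 ± 0.19 (limma adjusted p 0.426 and 0.466). Among these 9 genes the estimates ran from -0.39 to 0.19.

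Among 7 interferon regulatory factors none was called, and the median change was -0.04. Irf1, a transcription factor that IFN-γ induces, read 10.87 and 10.90 at 4 hours against 10.60 on both 16-hour arrays, a change of -0.28 ± 0.10 (limma adjusted p 0.227). Irf8, on which the CD8+ lineage depends, had a change of -0.25 ± 0.10 (adjusted p 0.312). With the block, Irf4 alone was called, lower by -0.40 (limma adjusted p 0.0194). Of 13 genes of the receptor, its kinases, STAT factors and their inhibitors, 1 was called. This was Socs2, a feedback inhibitor of growth hormone and cytokine receptors, at 9.05 and 9.18 at 4 hours against 7.79 and 8.25 at 16 hours, a change of -1.09 ± 0.16 (limma adjusted p 0.0115). It was not called without either treated 4-hour array. Socs1, the main inhibitor of IFN-γ signalling, stood at 9.95 and 9.43 early against 9.48 and 9.66 late, with overlapping arrays (change -0.12 ± 0.18, limma adjusted p 0.787).

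Of 16 genes of MHC class I presentation, Ubd alone was called. Ubd encodes FAT10, a ubiquitin-like protein that sends its targets to the proteasome, and its 4-hour arrays stood at 6.85 and 7.18 and both 16-hour arrays at 6.02, a change of -0.997 ± 0.17 (limma adjusted p 0.0217). That call was lost without either medium 4-hour array, either treated 4-hour array or array 1 of the treated 16-hour group. The peptide transporter Tap1 had a change of -0.12 ± 0.13 (limma adjusted p 0.698), and the list's median was -0.05. Of 20 genes induced chiefly by type I interferon, 1 was called: Isg15, another ubiquitin-like modifier, fell from 10.19 on both 4-hour arrays to 9.13 and 9.49 (change -0.88 ± 0.14, limma adjusted p 0.0138). The antiviral GTPase Mx1 had a change of -0.77 (limma adjusted p 0.0834), and 0.00683 with the block. With the block 1 of the 20 was called higher and 3 lower, while without either treated 4-hour array none was called and without array 2 of the treated 16-hour group 2 were. None of 5 tryptophan-metabolism genes was called, Ido1 (indoleamine 2,3-dioxygenase, the enzyme in the title of the study) with a change of 0.24 ± 0.15 (limma adjusted p 0.518) from a level below background at 4 hours. Wars, the tryptophan tRNA ligase that IFN-γ induces, had a change of -0.33 ± 0.12 (limma adjusted p 0.216). Its dimmer probe sets, above background, had changes of -0.61 and -0.21 (limma adjusted p 0.101 and 0.457). The first of them passed with the block (limma adjusted p 0.00948).

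**Figure D3:**
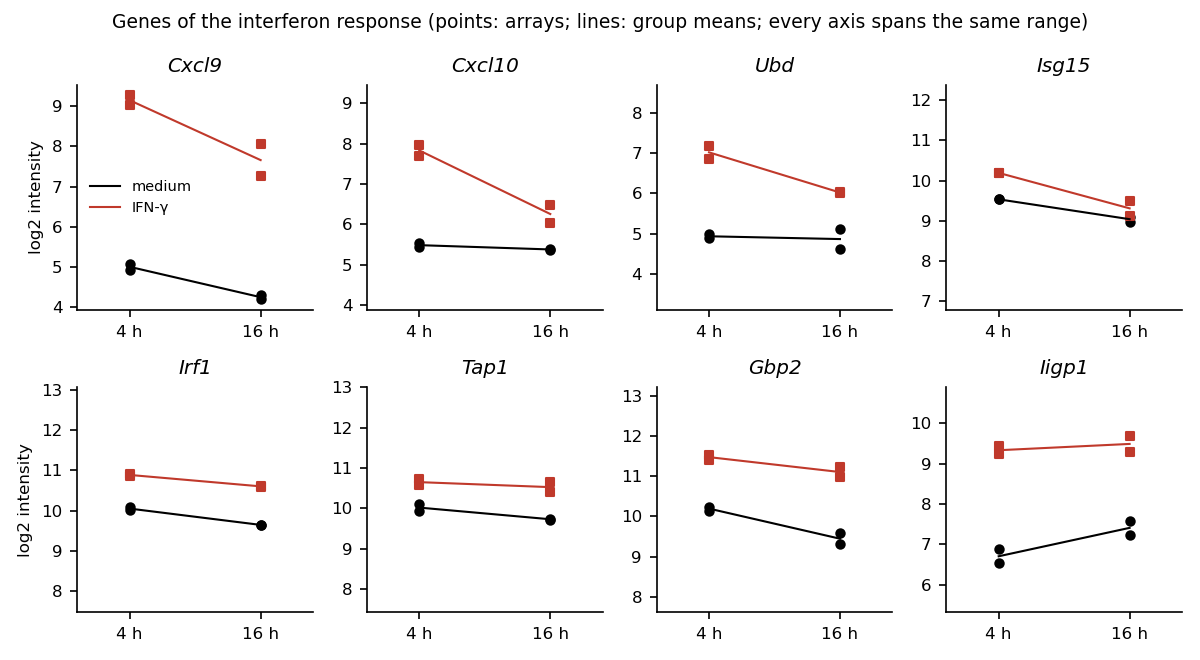
Log2 intensity (vertical axis, the same span in every panel) of 8 genes of the interferon response at 4 and 16 hours, in medium (black circles) and with IFN-γ (red squares), where points are arrays and lines join group means. Cxcl9, Cxcl10, Ubd and Isg15 were called lower at 16 hours under IFN-γ, with changes from -0.88 to -1.58, and Irf1, Tap1, Gbp2 and Iigp1, with changes from -0.37 to 0.16, were not called.

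In MHC class II presentation, genes of peptide editing rose: H2-DMa and H2-DMb1, which form the exchanger H2-DM, and H2-Oa, a chain of its modulator H2-O. These were 3 of 14 measured genes, and none of the 14 was called lower. H2-DMa read 9.70 and 9.75 at 4 hours against 10.27 and 10.42 at 16 hours, a change of 0.63 ± 0.11 (limma adjusted p 0.0222). H2-DMb1 and H2-Oa had changes of 0.54 ± 0.11 and 0.53 ± 0.10 (limma adjusted p 0.0361 and 0.0376). The antigen-binding chains themselves were already bright at 4 hours and were not called. H2-Aa read 12.19 and 12.17 at 4 hours against 12.27 and 12.31 at 16 hours (change 0.11 ± 0.10, limma adjusted p 0.663). H2-Ab1 and the class II transactivator Ciita had changes of 0.24 ± 0.12 and 0.18 ± 0.10 (limma adjusted p 0.433 and 0.516). The thiol reductase Ifi30, which unfolds antigen in the lysosome, had a change of -0.44 (limma adjusted p 0.0855, and 0.015 with the block). With the block 4 of the 14 were called higher and 2 lower. No class II gene was called without either treated 4-hour array or without either medium 4-hour array, and 1 was without array 1 of the treated 16-hour group.

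The largest rises were those of phagocyte genes. C1qa, C1qb and C1qc encode the 3 chains of C1q, the recognition molecule of the classical complement pathway, which macrophages and some dendritic cells make. The 250 bases before the starts of C1qb and C1qc are shown because these were the genes with the largest rises and lie next to each other on chromosome 4. Capitals mark the NF-κB motif above or the core of a PU.1 site (GAGGAAG, either strand, in 10.6% of promoters).
C1qb, chr4:136886201-136886450, minus strand: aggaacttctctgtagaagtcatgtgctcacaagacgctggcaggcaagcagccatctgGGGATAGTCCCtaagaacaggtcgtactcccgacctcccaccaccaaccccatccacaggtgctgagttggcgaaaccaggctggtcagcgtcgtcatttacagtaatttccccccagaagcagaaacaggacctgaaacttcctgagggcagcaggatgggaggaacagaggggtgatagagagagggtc
C1qc, chr4:136892915-136893164, minus strand: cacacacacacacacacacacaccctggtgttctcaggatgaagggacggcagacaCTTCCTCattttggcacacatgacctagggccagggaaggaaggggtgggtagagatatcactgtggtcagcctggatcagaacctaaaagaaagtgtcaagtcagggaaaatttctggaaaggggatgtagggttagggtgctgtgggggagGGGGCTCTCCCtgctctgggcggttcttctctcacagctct
The PU.1 core was found in C1qc, on the strand opposite to the gene, and not in C1qb, and both hold an NF-κB match. Neither window holds the interferon element core or the gamma-activated site.

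C1qb read 5.95 and 5.71 at 4 hours against 7.88 and 8.15 at 16 hours, a change of 2.18 ± 0.14, or 4.54-fold (limma adjusted p 0.000208). Its second, dimmer probe set was below background at both times and was not called (change 0.26, limma adjusted p 0.556). C1qa read 6.58 and 6.57 at 4 hours against 8.26 and 8.40 at 16 hours, and C1qc 7.54 and 7.45 against 9.24 and 9.29. These are changes of 1.76 ± 0.11 and 1.77 ± 0.11 (limma adjusted p 0.000206 for both). For all 3 chains the gap between the times was many times the gap between replicate arrays. Of 11 measured genes of complement and its receptors, 6 rose and none fell, with a list median of 0.74. The others called were the anaphylatoxin receptor C3ar1 (0.87 ± 0.12, limma adjusted p 0.00965, from below background and thus at least 1.30-fold), the alternative-pathway factor properdin (Cfp) and the integrin chain Itgb2. Without array 1 or array 2 at 4 hours under IFN-γ, the 3 C1q chains were the complement genes called.

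Receptors for antibody rose with them. Of 8 genes of Fc receptors and their signalling adaptors, 4 were called higher and none lower, with a list median of 0.66, and the block called 6. Fcgr1, the high-affinity receptor for IgG and itself a known IFN-γ target in phagocytes, read 6.35 and 6.74 at 4 hours against 8.04 and 8.26 at 16 hours, a change of 1.602 ± 0.16 (limma adjusted p 0.0015). A second probe set of Fcgr1 gave 1.45 (limma adjusted p 0.0167). The adaptor Tyrobp, which carries signals of activating myeloid receptors, read 9.39 and 9.28 against 10.22 and 10.41, a change of 0.98 ± 0.12 (limma adjusted p 0.00549). The inhibitory receptor Pirb and the common gamma chain Fcer1g had changes of 0.79 ± 0.11 and 0.75 ± 0.15 (limma adjusted p 0.00915 and 0.0385). Fcer1g lay below background at 4 hours, and against that background its rise was at least 1.49-fold, a bound computed from the higher of background and signal on each array. Without either treated 4-hour array, Fcgr1 was the one gene of this list called.

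Scavenger and pattern receptors followed. Of 12 measured, 4 rose and none fell: the scavenger receptors Msr1 and Stab1, Cd93, which takes part in the removal of apoptotic cells, and the lectin Clec4a2. Msr1 read 5.98 and 6.05 at 4 hours against 6.75 and 7.24 at 16 hours (change 0.98 ± 0.17, limma adjusted p 0.0213). Cd93 and Stab1 were below background at 4 hours, from which they rose at least 1.82-fold and 1.36-fold, and Clec4a2 was below it at both times. Cd14, the co-receptor for bacterial lipopolysaccharide, had a change of -0.38 ± 0.13 (limma adjusted p 0.207, and 0.0213 with the block). With the block 4 of the 12 were called higher and 2 lower, Cd14 and the endocytic receptor Ly75. With array 1 of the treated 4-hour group left out, 1 of these genes was called, and with array 2 left out, none was.

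Lysosomal proteins formed the broadest rise in number: 9 of 28 were called higher and 1 lower, with a median of 0.46. The cathepsins Ctsa, Ctsb, Ctsd and Ctsl, the hexosaminidase Hexa, the acid lipase Lipa, prosaposin (Psap), progranulin (Grn) and the membrane protein Cd68 rose. Ctsd, an aspartic protease, read 9.40 and 9.34 at 4 hours against 10.38 on both 16-hour arrays, a change of 1.01 ± 0.11 (limma adjusted p 0.00354). Ctsb had a change of 0.75 ± 0.10 and Hexa of 0.79 ± 0.12 (limma adjusted p 0.00921 and 0.0115), both in brightest probe sets, while their dimmer ones, mostly below background, were not called. Cd63, a tetraspanin of lysosomes and exosomes, went the other way, from 9.66 and 9.82 to 8.19 and 8.56, a change of -1.36 ± 0.19 (limma adjusted p 0.00853). The block called 15 higher and 2 lower. Without array 1 or array 2 of the treated 4-hour group, 1 and 0 of the 28 were called, and 7 without either medium 4-hour array. Slc11a1, an ion transporter of the phagosome membrane that limits intracellular bacteria, rose from 6.98 and 7.02 to 8.16 and 8.27, by 1.22 on the log2 scale (SE 0.11, limma adjusted p 0.000959).

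The remaining leading rises were also genes of myeloid cells. Lyz2, the lysozyme of phagocytes, read 8.67 and 8.69 at 4 hours against 10.09 and 10.58 at 16 hours (change 1.66 ± 0.18, limma adjusted p 0.00273). Its dimmer probe set, below background, had a change of 0.56 (limma adjusted p 0.169). Pla2g7, which breaks down platelet-activating factor, went from 6.40 and 6.30 to 7.60 and 8.14 (change 1.52 ± 0.19, limma adjusted p 0.00612). Csf1r, the receptor for macrophage colony-stimulating factor, and Adgre1, an adhesion receptor of macrophages, both had a change of 1.24 (limma adjusted p 0.0051 and 0.00982), with a dimmer probe set of each below background and not called. Mgst1, a microsomal glutathione transferase, Pld4, an endolysosomal nuclease, Aif1, an actin-binding protein of macrophages, and Lst1, a leukocyte membrane protein, rose by 1.33, 1.19, 1.19 and 1.09 on the log2 scale. Mgst1 was below background at 4 hours, which makes its rise at least 1.44-fold. For Lst1 the values were 9.42 and 9.29 at 4 hours and 10.45 on both 16-hour arrays (limma adjusted p 0.0015).

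Several of these genes are also markers of macrophages, a cell type that a spleen preparation can hold. Of 13 measured macrophage markers, 8 rose and 1 fell, with a median of 1.24, against 0.04 over all genes. The summed intensity of the 13 was 1362 and 1359 on the 4-hour arrays and 3352 and 4143 on the 16-hour arrays. The rises were Adgre1, Csf1r, the C1q chains, Fcgr1, Lyz2 and Cd68. Mertk, Maf, Vcam1 and Mrc1, the last a mannose receptor of tissue macrophages, were below background at both times. Spic, the transcription factor of red pulp macrophages, fell from 5.71 and 5.80 to 4.06 and 4.57, a change of -1.44 ± 0.19 (limma adjusted p 0.00762), which took it below background, so that no fold is given. In RNA of whole cultures a larger number of cells of a type and more RNA per cell cannot be told apart, and the part of macrophages in these rises was not tested. Without array 1 or array 2 of the treated 4-hour group, 6 and 5 of the 13 were called.

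Markers of other cell types gave fewer calls. Of 8 B cell markers, Cd22 and Blk were called higher, with changes of 0.89 ± 0.16 and 0.62 ± 0.13 (limma adjusted p 0.0228 and 0.0436). The median was 0.54 and the summed intensity went from 6688 and 6416 to 8299 and 8717. With the block 7 of the 8 were called higher, while without either treated 4-hour array or either medium 4-hour array none was. H2-Oa, named above, is a gene of B cells as well as of dendritic cells, and the part of B cells in its rise was not tested. Of 12 CD8+ dendritic cell markers, Flt3, the receptor for the ligand given to the mice, was called lower, from 9.05 on both arrays to 8.47 and 8.58 (change -0.52 ± 0.10, limma adjusted p 0.0385). A dimmer Flt3 probe set, above background, had a change of 0.05 (limma adjusted p 0.901). The list's summed intensity was 4949 and 5208 at 4 hours and 3793 and 4457 at 16 hours, and the block called 5 lower and 1 higher, among the lower ones the transcription factors Batf3 and Id2. Of the erythroid markers, Hba-a1, a hemoglobin chain, fell by 0.82 on the log2 scale (SE 0.11, limma adjusted p 0.00824). Hbb-b2 was called too, at a level below background in both groups. Among 5 mast cell and basophil markers Mcpt8 was called higher (0.78 ± 0.14, limma adjusted p 0.0245), and among 5 monocyte markers Ccr2. With the block 2 monocyte markers, S100a4 and Cd14, were called lower, with changes of -0.43 and -0.38. None of the 12 neutrophil, 8 T cell, 6 NK cell, 6 plasmacytoid dendritic cell, 4 CD11b+ dendritic cell, 4 plasma cell or 2 platelet markers was called. With the block, 1 T cell, 1 plasmacytoid and 3 CD11b+ dendritic cell markers were. None of the calls of Flt3, Mcpt8, Ccr2, Hba-a1 and Hbb-b2 was kept with array 2 of the treated 4-hour group left out, and Flt3 was not called without any one medium array either.

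Of 15 genes of CC chemokines and their receptors, 4 rose and 2 fell. Ccl2, the main attractant of monocytes, read 5.81 and 6.07 at 4 hours against 6.70 and 7.36 at 16 hours (change 1.09 ± 0.22, limma adjusted p 0.0385), and its receptor Ccr2 read 6.82 and 7.21 against 7.85 and 8.25 (change 1.03 ± 0.20, limma adjusted p 0.0367). Ccl8, another monocyte attractant, had a change of 0.88 ± 0.11 (limma adjusted p 0.0051), and Ccl12 was called at a level below background. Among the falls, Ccl22, a ligand of Ccr4 that mature dendritic cells secrete, fell from 9.90 and 10.00 to 8.40 and 8.38 (change -1.56 ± 0.10, limma adjusted p 0.000208). Ccr7, the receptor that guides mature dendritic cells to lymph nodes, fell from 11.04 and 10.87 to 9.85 and 10.19 (change -0.94 ± 0.14, limma adjusted p 0.0115). The block called 6 higher and 4 lower. Without either treated 4-hour array, Ccl22 was the one gene of the 15 called.

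Costimulation and maturation was the list with the most called falls. Of 20 measured, 10 fell and none rose, and the median was -0.71. Cd40, through which helper T cells license dendritic cells, read 8.94 and 8.79 at 4 hours against 7.24 and 7.52 at 16 hours (change -1.49 ± 0.13, limma adjusted p 0.000957). Fscn1, the actin bundler of mature dendritic cells, went from 11.61 and 11.60 to 10.55 and 10.54 (change -1.06 ± 0.10, limma adjusted p 0.0015). The difference was many times the spread of its replicates. The ligand Cd86, which engages CD28 on T cells, read 8.47 and 8.81 against 7.59 and 7.88 (change -0.90 ± 0.16, limma adjusted p 0.0233). Its partner Cd80 missed the threshold, with a change of -0.62 ± 0.14 (limma adjusted p 0.0632), and passed with the block (0.00252). The other members called were Cd83, the adhesion molecule Icam1, Ccr7, Ccl22, the signalling adaptor Traf1, the NF-κB subunit Relb and Marcksl1, an actin-regulating protein kinase substrate. With the block 15 of 20 were called lower and none higher. Without either treated 4-hour array 3 were called, Ccl22, Cd40 and Fscn1, and without array 1 of the treated 16-hour group 6.

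NF-κB, the transcription factor family behind dendritic cell maturation, showed the same direction, in part through the same genes. Relb and Traf1 were called members of both lists. Of 17 genes of the pathway, 5 were called lower and none higher, with a median of -0.46, and the block called 11 lower. The noncanonical subunits Relb and Nfkb2 and the adaptor Traf1 were among them, Relb at 9.89 and 9.64 at 4 hours and 8.98 and 9.14 at 16 hours (change -0.70 ± 0.14, limma adjusted p 0.0361). The pathway's inhibitor Tnfaip3 (A20) and the apoptosis inhibitor Birc3 had changes of -0.69 ± 0.13 and -0.58 ± 0.12 (limma adjusted p 0.0348 and 0.0385). None of the 5 calls was kept without either treated 4-hour array, and 1 was kept without either medium 4-hour array or without array 1 of the treated 16-hour group.

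**Figure D4:**
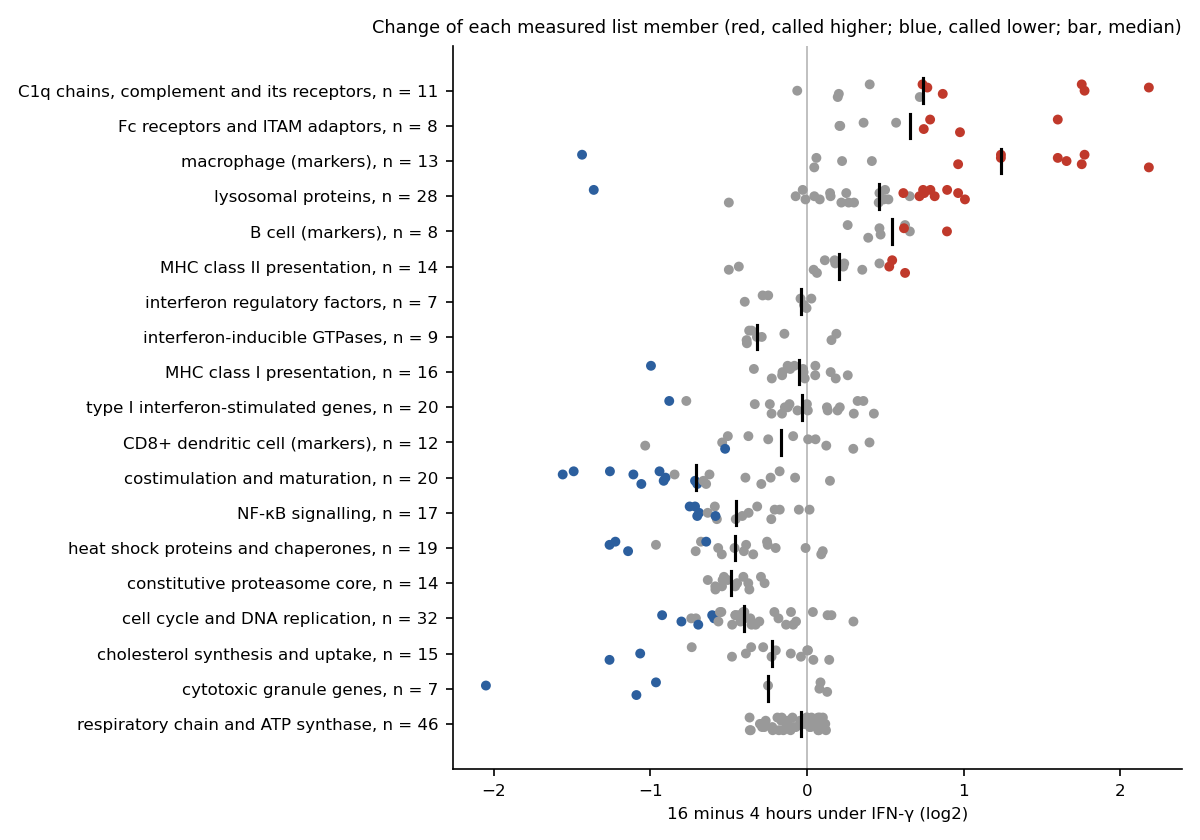
Change from 4 to 16 hours under IFN-γ (log2, horizontal axis) of every measured member of 19 gene lists, where each point is a gene, red and blue points passed the test, and black bars are medians. Complement, Fc receptor and macrophage genes lie to the right (medians 0.74, 0.66 and 1.24), costimulation genes to the left (-0.71), and interferon regulatory factors, MHC class I and respiratory chain genes about 0.

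Of 27 cytokines and their receptors, 2 rose and 2 fell. Il1rn, the secreted antagonist of interleukin-1, had the largest fall of all called genes, from 8.51 and 8.43 to 6.21 and 6.54, a change of -2.10 ± 0.15 or 4.28-fold (limma adjusted p 0.000343). Il1b, the cytokine it opposes, read 7.72 and 7.92 at 4 hours against 6.79 and 7.19 at 16 hours (change -0.83 ± 0.16, limma adjusted p 0.0362). Il18bp, the soluble inhibitor of interleukin-18 and a known IFN-γ target, rose from 7.88 and 7.89 to 8.68 and 9.10, by 1.01 on the log2 scale (SE 0.14, limma adjusted p 0.00965). Csf1r, described above, was the other rise. The block called 3 higher and 6 lower. Without array 1 of the treated 4-hour group 2 of these genes were called, and without array 2, 1.

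Genes of cytotoxic granules were measured in 7 cases, of which 3 fell and none rose. Gzmb, a protease of killer cells that dendritic cells of some kinds also make, read 9.17 and 9.12 at 4 hours against 7.0 and 7.19 at 16 hours (change -2.05 ± 0.13, 4.15-fold, limma adjusted p 0.000206). Serpinb9, the inhibitor that protects a cell from granzyme B, went from 10.56 and 10.71 to 9.32 and 9.78 (change -1.09 ± 0.19, limma adjusted p 0.0223). Srgn, the proteoglycan that packs granules, had a change of -0.96 ± 0.17 (limma adjusted p 0.0267). The killer-cell gene Prf1 was not called, and the summed intensity of 6 NK cell markers was 531 and 532 at 4 hours and 495 and 575 at 16 hours. Gzmb alone was called without either treated 4-hour array, either medium 4-hour array or array 1 of the treated 16-hour group.

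A few large falls lay outside these lists. Laptm4b, a lysosomal transmembrane protein, read 8.59 and 8.66 at 4 hours against 7.05 and 7.25 at 16 hours (change -1.48 ± 0.12, limma adjusted p 0.000886). Procr, the endothelial protein C receptor, read 7.61 and 7.62 against 6.02 and 6.58 (change -1.32 ± 0.17, limma adjusted p 0.00764). Csrp1, a LIM domain protein of the actin cytoskeleton, went from 8.91 and 8.80 to 7.27 and 7.97 (change -1.24 ± 0.22, limma adjusted p 0.0234), and its second probe set gave -1.30. In the last 2 genes the 16-hour arrays lay apart from each other, array 1 the lower, yet both stayed below the 4-hour arrays. Procr was not called without either treated 4-hour array.

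The mevalonate pathway was represented by Idi1 and Fdps, which make the isoprenoid precursors of cholesterol: Idi1 went from 8.85 and 8.87 to 7.44 and 7.75 (change -1.26 ± 0.12, limma adjusted p 0.00155), and Fdps from 9.49 and 9.43 to 8.41 and 8.38 (-1.07 ± 0.10, limma adjusted p 0.0015). They were the 2 called of 15 genes of cholesterol synthesis, with a list median of -0.23, and both were called with either treated 4-hour array left out. The block called 6 lower, and 4 were called without array 2 of the treated 16-hour group. Of 19 heat shock proteins and chaperones, 4 fell and none rose (median -0.46, and 12 lower with the block). The inducible heat shock proteins Hspa1a and Hspa1b had changes of -1.22 ± 0.11 and -1.26 ± 0.12 (limma adjusted p 0.00121 and 0.0013). Their sequences are nearly identical and may share signal, and Hspa1b lay below background at 16 hours, a fall of at least 1.33-fold. The mitochondrial chaperonin Hspd1 read 9.57 and 9.67 against 8.15 and 8.80 (limma adjusted p 0.0245), but a dimmer probe set, above background, had a change of 0.14 (limma adjusted p 0.707). Leaving out a treated 4-hour array, a medium 4-hour array or array 1 of the treated 16-hour group left 2 of the 4 chaperone calls, and without array 2 of the last group 10 were called.

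Metallothioneins, which bind zinc and copper, fell: Mt1 from 9.48 and 9.14 to 8.21 and 8.11 (change -1.15 ± 0.14, limma adjusted p 0.00612) and Mt2 from 9.10 and 9.11 to 8.10 and 8.00 (-1.06 ± 0.13, limma adjusted p 0.0051). With them fell Sqstm1, the autophagy receptor p62 (change -0.91 ± 0.13, limma adjusted p 0.00965), and in all 5 of 18 genes of metal and oxidative stress were lower and 1, Slc11a1, higher (7 and 3 with the block). Without array 1 or array 2 of the treated 4-hour group, 1 and 2 genes of this list were called. Of 19 genes of the amino acid and endoplasmic reticulum stress response 3 fell: Psat1, of serine synthesis, the glycine tRNA ligase Gars and the amino acid transporter chain Slc7a5, with changes of -1.06 ± 0.18, -0.75 ± 0.14 and -0.55 ± 0.11 (limma adjusted p 0.0198, 0.0338 and 0.0385). The block called 12 of them lower, none was called without either treated 4-hour array, 1 was without either medium 4-hour array or array 1 of the treated 16-hour group, and 6 were without array 2 of that group. Of 32 cell cycle and DNA replication genes 5 fell and none rose, with a median of -0.40: Cdc6 and Mcm4 of origin licensing, Mcm7 of the same helicase, the ribonucleotide reductase subunit Rrm2 and the primase Prim1. Cdc6 read 7.24 and 7.38 at 4 hours against 6.17 and 6.59 at 16 hours (change -0.93 ± 0.17, limma adjusted p 0.0257). The block called 17 of the 32 lower. The 5 calls were lost without either treated 4-hour array, either medium 4-hour array or array 1 of the treated 16-hour group, and 12 were called without array 2 of that group.

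For some large complexes the count of calls depended on the pairing. None of the 14 core subunits of the constitutive proteasome, which degrades ubiquitinated proteins, was called, although all 14 changes were negative, with a median of -0.48. With the replicate block 11 were called lower. Psma7, for example, read 9.19 and 9.42 at 4 hours against 8.52 and 8.83 at 16 hours, a change of -0.63 (limma adjusted p 0.0892, and 0.0024 with the block). Without array 2 of the treated 16-hour group 8 were called. By contrast, none of 34 cytosolic ribosomal proteins passed in either fit, and their changes ran from -0.08 to 0.26. Of 46 respiratory chain and ATP synthase genes none was called, or 1 with the block, between -0.37 and 0.12. Among 15 glycolysis genes Eno2 and Ldha were called lower (-0.93 and -0.54, limma adjusted p 0.00762 and 0.0485), and the block called 4 lower and 1 higher. Neither was called without either treated 4-hour array, 1 glycolysis gene was without any one medium array or array 1 of the treated 16-hour group, and 4 were without array 2 of the treated 16-hour group. None of 9 BCL2 family genes or 8 cholesterol efflux genes was called, though the block called 1 BCL2 family gene each way and, of the efflux genes, 3 higher, the lipoprotein Apoe among them (change 0.53, limma adjusted p 0.0153 with the block), and 1 lower. Casp4 of 8 caspases, Cdkn1a of 9 cyclin D and CDK inhibitor genes, and Dusp1 and Zfp36 of 19 immediate early genes fell, with changes of -0.81, -0.78, -0.90 and -0.58 (limma adjusted p 0.0482, 0.00853, 0.0219 and 0.0487). Each of these 4 calls was lost without either treated 4-hour array, and those of Casp4, Dusp1 and Zfp36 also without either medium 4-hour array. Of the immediate early genes, 6 were called lower with the block, among them Myc and Klf4 (changes -0.75 and -0.49), and 6 genes were called without array 2 of the treated 16-hour group.

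Genes read by several probe sets give a check within the array. Of the 216 called genes, 59 had at least 1 dimmer probe set, 74 in all, of which 14 were called in the same direction and none in the opposite one. The other 60 were not called, 35 of them below background at both times and 25 above it at one time or both, and 13 of the 74 had the opposite sign, 4 of these above background. The calls are therefore those of the brightest probe set. Above background, dimmer probe sets that were not called had changes of 0.48 for Blk, 0.40 and 0.25 for Psap, 0.12 for Grn and -0.50 for Relb (limma adjusted p 0.177, 0.122, 0.415, 0.698 and 0.078). Below it, those of Pld4 and of Fdps gave -0.19 for Pld4 and -0.13 and 0.17 for Fdps. Among genes not called, a dimmer probe set below background gave -0.33 for Ido1 and 0.40 for Tap1, opposite in sign to the brighter one.

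Most of these changes were also present in cells cultured without IFN-γ. The comparison of 16 with 4 hours in medium shares no array with that under IFN-γ, but both use the same estimate of spread. It called 133 genes higher and 251 lower (1.61% and 3.04%). Of the 83 genes that rose under IFN-γ, 82 had a positive change in medium and 54 were called there. Of the 133 that fell, 130 had a negative change in medium and 105 were called. C1qa, for example, read 6.53 and 6.59 at 4 hours against 8.49 and 8.51 at 16 hours in medium, and Gzmb 8.81 on both 4-hour arrays and 6.65 and 6.94 at 16 hours. Over the 8251 genes the changes had a Pearson correlation of 0.80, a description across genes. Median changes were 1.12 in medium and 0.74 with IFN-γ for complement, 1.21 and 1.24 for macrophage markers, 0.44 and 0.46 for lysosomal proteins, and -0.67 and -0.71 for costimulation. The medians of a list can fall on different genes. Taken gene by gene, the median difference for complement was -0.09, and none of its 11 genes passed for the difference in either fit. The median changes of other lists differed more. In medium and with IFN-γ they were -0.43 and -1.53 for Cxcl9 and Cxcl10, below background in medium, 0.20 and -0.03 for type I interferon-stimulated genes, and 0.24 and 0.54 for B cell markers. The value of -0.43 is a median of 2 unlike genes, as Cxcl10 changed by -0.11 in medium. The block called 1 of the 2 lower in medium. No type I interferon-stimulated gene and no B cell marker passed for the difference in either fit.

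**Figure D5:**
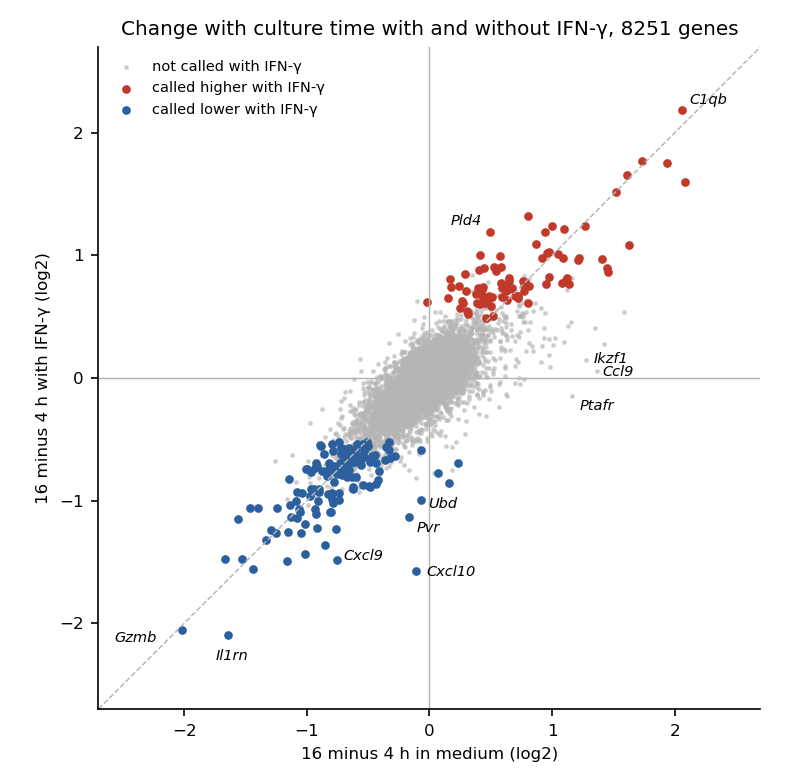
Change from 4 to 16 hours in medium (horizontal) and with IFN-γ (vertical), in log2 units, for 8251 genes, with those called under IFN-γ in red (83) and blue (133) and a dashed line of equal change. Most called genes lie along the line, while Cxcl10, Pvr and Ubd, which fell under IFN-γ, lie near 0 on the medium axis, where their signal was below background at both times. Ccl9, Ikzf1 and Ptafr rose in medium and were not called under IFN-γ.

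The difference between the time changes, tested gene by gene, passed for no probe set. The smallest adjusted p was 0.158 (limma), with 353 of 12422 probe sets under an unadjusted p of 0.05, and 181 of 8251 genes. With the replicate block 30 probe sets passed (0.242%), all with a lower change under IFN-γ than in medium, 9 of them the brightest of a named gene (0.109% of genes). Of these 9 genes, 2 fell under IFN-γ and were not called in medium. Both were below background in medium at both times, where the size of a fall is uncertain, so that no size is given for their difference. Cxcl10 changed by -1.58 under IFN-γ, and in medium it read 5.44 and 5.52 at 4 hours against 5.38 and 5.37 at 16 hours (limma adjusted p of the difference 0.269, and 0.00948 with the block). Pvr, the poliovirus receptor homolog that binds activating receptors of killer cells, read 6.05 and 6.08 at 4 hours against 5.0 and 4.85 at 16 hours under IFN-γ, a fall to below background of at least 1.23-fold, and 5.25 and 5.18 against 5.08 and 5.03 in medium. The adjusted p of its difference was 0.270 (limma), and 0.0191 with the block.

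The other 7 genes rose in medium and were not called under IFN-γ in the fit without the block. Ccl9, a chemokine of myeloid cells, went from 7.11 and 7.18 to 8.54 and 8.47 in medium, and read 6.53 and 6.69 at 4 hours against 6.69 and 6.65 at 16 hours with IFN-γ. The difference was -1.30 ± 0.15 (limma adjusted p 0.158, and 0.00852 with the block). Ikzf1, the lymphoid transcription factor Ikaros, rose in medium from 5.15 and 5.16, below background, to 6.39 and 6.48, against 6.10 and 6.17 and then 6.26 and 6.30 with IFN-γ (limma adjusted p of the difference 0.159, and 0.00948 with the block). At 4 hours it thus read higher with IFN-γ than in medium, and at 16 hours lower. These gaps between treatments were not tested. Ptafr, the receptor for platelet-activating factor, rose in medium from 6.07 and 6.26 to 7.19 and 7.46, and its treated arrays overlapped between the times, with a change of -0.14 in its brightest probe set and 0.07 in another above background (difference -1.31 ± 0.23, limma adjusted p 0.341, and 0.00626 with the block). Ighg3, Emp1, Cybb and Ccr1 completed the 9, Cybb being the catalytic subunit of the phagocyte NADPH oxidase. Ccr1 was below background in both treated groups and in medium at 4 hours.

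Among genes whose change was lower under IFN-γ, Swap70, a B cell and myeloid signalling protein, fell under IFN-γ from 6.95 and 6.85 to 5.88 and 6.22 (limma adjusted p 0.0167), against a change of 0.16 in medium. Its difference did not pass in either fit (limma adjusted p 0.401, and 0.0536 with the block). In the opposite direction the 6 genes with the smallest p for the difference were Pld4, Grina, Raly, Laptm5, Plpp1 and Rbm38, and none passed. Pld4 had changes of 1.19 under IFN-γ and 0.50 in medium (difference 0.70 ± 0.17, limma adjusted p 0.736), and Grina, a membrane protein of the Golgi and endoplasmic reticulum, of 0.81 and 0.17 (0.64 ± 0.17, limma adjusted p 0.806). For Cxcl9 and Ubd, which fell under IFN-γ and were below background in medium at both times, the difference did not pass (limma adjusted p 1 and 0.793).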

How the data were processed

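RNA was measured on 8 arrays, and the report uses the 4 arrays of IFN-γ-treated cells, with the 4 medium arrays for the shared spread and for comparison. The submitters' processing notes name RMA as the tool, and its version and settings are not given in the sources used here. The authors deposited intensity per probe set on a linear scale, from 2.65 to 12523.5, which was converted to log2 without a pseudocount or renewed normalization.

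Control probe sets, 66 of 12488, were set aside. Of the 12422 tested, 10833 had 1 gene symbol in the platform annotation, 396 carried more than 1, and the 1193 it does not list stay unnamed. Of the 10833, 10817 matched a RefSeq gene number (GRCm38.p6) with 0 symbols changed, and 16 kept the annotation's name. For each of 8251 genes the brightest probe set, by its mean of the 8 arrays, is reported, and dimmer ones are summarised by their calls. Promoters and gene starts come from RefSeq (GRCm38.p6).

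Differences were tested over all 8 arrays in R 4.3.3 by limma 3.58.1, using lmFit and eBayes, two-sided. The code was tested on simulated data. Replicate numbers were checked for pairing: the difference between arrays 1 and 2 correlated between every 2 groups, with Pearson correlations from 0.367 to 0.740. The numbers were therefore taken to pair the arrays, a reading of the data that no label states. The pairing enters the fit with the block and the changes given per pair. The fit without the block, which sets the calls, leaves it out.

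The members, the 44 gene lists and the tests were chosen with earlier results of these data known. The text names the 15 largest called rises and falls without overlap of arrays, the members of each list with the smallest p, at most 4,, 6 genes each way for the difference between the time changes, and a fixed set. Further called members of a list, the remaining genes of the difference with the block, and macrophage markers below background were named after their values were seen. Alternatives were other normalizations, filters, priors, array weights and thresholds, the replicate block, fewer arrays, 1 mean value per gene, and log2 of the value plus 16.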

Additional observations from a re-analysis of the deposited data

How the results depend on the processing

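With the replicate block, 397 probe sets were called higher and 862 lower under IFN-γ in place of 102 and 161, 562 and 1005 in place of 212 and 319 in medium, and 30 lower in place of 0 for the difference. Array weights gave 58 higher and 87 lower under IFN-γ, and 339 and 560 in medium. A fit of the 4 treated arrays alone gave 43 and 77, having fewer arrays. Without the arrays numbered 1 at 16 hours in both groups the counts under IFN-γ were 171 and 107. An adjusted p under 0.01 gave 25 and 41 under IFN-γ and 86 and 58 in medium, and a change of at least 1 gave 20 and 44 and, in medium, 53 and 41. A mean value per gene, which tests fewer features, called 138 higher in medium. With 1 array left out at a time, 10 to 149 were called higher and 17 to 559 lower under IFN-γ, and 46 to 340 higher and 27 to 583 lower in medium. The lone array of a group was then assumed to vary like the others. For the difference these fits called none. Quantile normalization, median centring, removal of the dimmest 40% of probe sets, a robust prior with a trend, and log2 of the value plus 16 kept the counts under IFN-γ within 1.5 times.

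Signs reversed for genes that were not called. With a mean value per gene, Ido1 (-0.042), Tap1 (0.139) and Ptafr (0.018) reversed, and Socs1 (0.013) did with quantile normalization. Without the arrays numbered 1 at 16 hours, Ptafr (0.0097), Cd8a (0.0445) and Itgax (-0.052) reversed. With single arrays left out, the change ran from -0.0194 to 0.141 for Ccl9, -0.298 to 0.0097 for Ptafr, -0.379 to 0.14 for Socs1, -0.0441 to 0.357 for Iigp1, -0.221 to 0.0445 for Cd8a and -0.0571 to 0.166 for Itgax. For the other alternatives the cause of a moved count was not tested. The number of arrays and, for dim genes, background limit what these data can show.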
